A study of Mus musculus with 6 samples.

Results

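The 10 genes described here are early response genes of 3 families and a single gene beside them, chosen by symbol: Egr1, Egr2 and Egr3, Nr4a1, Nr4a2 and Nr4a3, Dusp1, Dusp5 and Dusp6, and Ier3. All 10 were found among the 15667 genes of the table, and all 10 were tested. They were measured by RNA-seq in ear skin at the site of a tick bite, in 3 wild-type mice (WT, genotype Adipo+/+) and 3 mice without adiponectin (KO, genotype Adipo-/-). Adiponectin is a hormone secreted by fat cells, and the KO mice carried a null allele of its gene, Adipoq, in every cell from the germline on. All mice were female littermates of 7 to 8 weeks from heterozygous B6;129-Adipoqtm1Chan/J breeders, so the background is mixed. Each had been fed upon by 10 Ixodes scapularis nymphs for 48 h. Each library came from a single 3.5 mm punch of 1 mouse. Skin without a bite was not analysed here, so no level below can be called induced by the bite.

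Early response genes are transcribed within minutes of a signal, without new protein synthesis. Growth factors, stress or wounding activate the kinases ERK, p38 and JNK, which phosphorylate factors already bound at these genes, such as the ternary complex of SRF with an ETS protein and the cAMP-responsive factor CREB. EGR proteins are zinc finger transcription factors, and NR4A proteins are orphan nuclear receptors that act without a hormone. DUSP proteins are phosphatases that remove phosphate from those same kinases and so close a feedback loop, and IER3 is a small protein that modulates ERK signaling and cell survival. In skin, such genes are known to respond quickly to wounding.

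Promoter windows were searched for the letters of known response elements, and 4 are printed: windows of the members with a CArG box or the full CRE, and that of Nr4a1, the member with the smallest p. A window holds the 250 bases before and 50 bases after a RefSeq transcription start (GRCm38.p6), and windows were found for 8 of the 10 members, those other than Egr1 and Egr3. Capitals mark the CArG box, to which SRF binds (CC, then 6 letters A or T, then GG), and the cAMP response element (CRE), searched as TGACGTCA and as its core TGACG on both strands. The Nr4a1 window (chr15:101266596-101266895, plus strand) held 4 cores. The Dusp1 window (chr17:26508423-26508722, minus strand) held the full CRE and 1 more core. The Dusp5 window (chr19:53528895-53529194, plus strand) held 2 adjoining CArG boxes and a core, and the third of the 5 Egr2 windows (chr10:67537619-67537918, plus strand) held 1 CArG box and 2 cores.
Nr4a1: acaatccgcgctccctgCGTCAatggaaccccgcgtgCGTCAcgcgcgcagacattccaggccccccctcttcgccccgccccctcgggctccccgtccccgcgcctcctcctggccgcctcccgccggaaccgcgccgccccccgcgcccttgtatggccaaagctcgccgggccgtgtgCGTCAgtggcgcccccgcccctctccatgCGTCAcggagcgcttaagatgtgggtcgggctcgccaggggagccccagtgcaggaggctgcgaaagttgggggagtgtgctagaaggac
Dusp1: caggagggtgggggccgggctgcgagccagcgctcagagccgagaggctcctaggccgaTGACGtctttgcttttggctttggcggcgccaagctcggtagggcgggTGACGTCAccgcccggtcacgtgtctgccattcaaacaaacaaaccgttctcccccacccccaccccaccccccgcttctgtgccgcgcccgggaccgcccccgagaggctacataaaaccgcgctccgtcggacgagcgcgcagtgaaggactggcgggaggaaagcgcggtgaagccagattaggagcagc
Dusp5: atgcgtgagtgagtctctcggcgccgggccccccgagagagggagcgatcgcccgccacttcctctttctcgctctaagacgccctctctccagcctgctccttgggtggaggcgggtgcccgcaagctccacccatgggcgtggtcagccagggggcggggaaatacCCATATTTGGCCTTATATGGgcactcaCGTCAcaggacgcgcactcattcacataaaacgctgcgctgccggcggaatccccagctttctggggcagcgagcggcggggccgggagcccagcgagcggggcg
Egr2: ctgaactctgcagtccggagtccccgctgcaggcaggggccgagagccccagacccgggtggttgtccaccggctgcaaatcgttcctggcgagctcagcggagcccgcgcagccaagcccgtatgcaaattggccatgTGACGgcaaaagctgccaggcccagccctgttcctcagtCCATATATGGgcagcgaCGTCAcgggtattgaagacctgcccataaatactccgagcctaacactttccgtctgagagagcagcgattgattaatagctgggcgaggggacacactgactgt

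Counted from the start site, the CArG box letters of this Egr2 window and the second box of Dusp5 lay at the same place, -72 to -63. Both windows also had a CRE core, on the minus strand of the gene, at -55 to -51. These places depend on the start chosen. The same Egr2 box lay at -73 to -64 in window 4 and at -133 to -124 in window 5. The full CRE of Dusp1 lay at -143 to -136. CArG box letters were found in 2 of the 8 members with a window, against 1.81% of the 27025 genes with a window and 1.62% of the 11264 tested genes among them. A gene counted if any of its windows held the letters. Egr2 had 5 windows to hold them, while the 27025 genes had 32851 windows in all. The full CRE was found in 1 of 8, against 2.03% and 3.33%, and the core in 6 of 8, against 23.0% of all genes and 33.6% of the tested genes with a window. The full CRE holds the core on both strands, so these counts overlap. The EGR site GCGNGGGCG was found in Nr4a1 and Nr4a2 (6.27% of all genes and 11.8% of the tested genes with a window). The ETS core CCGGAA was found in Nr4a1 and in the second Egr2 window (16.7% and 28.8%). The AP-1 site TGANTCA and the NR4A site AAAGGTCA were found in none of the 8 (8.97% and 1.70% of all genes, 6.96% and 1.17% of the tested genes). These are matches of letters in a short window, and binding was not measured.

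**Figure D1:**
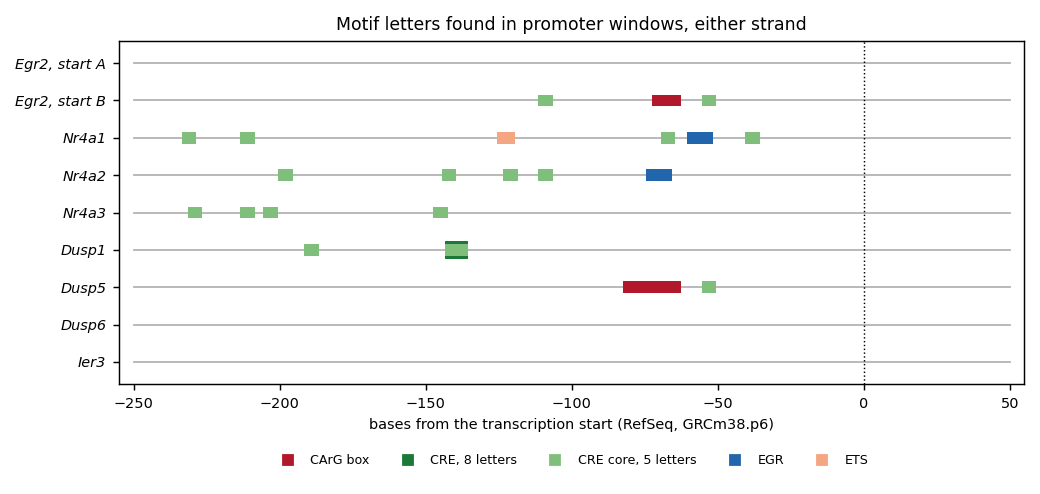
Motif letters by distance in bases from the start site (dotted line) in the promoter windows of the 8 members with a window. For Egr2, 2 of the 5 windows are drawn (start A and start B, the printed one). Blocks mark matches on either strand, and the CArG boxes of Egr2 and Dusp5 lie between -82 and -63.

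Before the members were compared, the libraries were examined. The implied depth was 3403703 to 6591500 reads, and the members were counted with 16 to 1543 reads per library. Adipoq stood at 30.5 to 63.7 CPM in WT libraries and at 0, 2 and 0 reads in KO libraries, so all 6 labels matched the targeted gene. The skin markers Krt5, Krt14, Krt1, Krt10 and Lor together reached 20869 to 39399 CPM. Libraries stood apart by hair follicle genes: the sum of 12 markers was 12.3, 17.7 and 22586 CPM across the WT libraries, against 942 to 9005 CPM in KO libraries. Of the neutrophil list of 7 (S100a8, S100a9, Retnlg, Csf3r, Cxcr2, Mmp8 and Ly6g), 6 were in the table, all but Ly6g. Their sum was 502 CPM in WT replicate 1 against 15.2 to 168 CPM in the other libraries. It is a sum of RNA levels and no count of cells. CPM is counts per 1000000 reads of a library. Values below are CPM in replicates 1, 2 and 3 of each group, and tests are by limma on log2(CPM + 0.5).

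In KO skin, 4 of the 10 genes were lower at an unadjusted p below 0.05, namely Nr4a1, Egr1, Dusp6 and Dusp1, and none was higher. Of all 14306 genes tested, 1.82% were lower and 1.06% were higher at that level. The KO means of these 4 genes were 52.2% to 60.4% of the WT means. None of the 10 passed the Benjamini-Hochberg adjustment (adjusted p = 0.998 each in limma), which 0.014% of the tested genes did. The mean log2 value was lower in KO in 9 of the 10, against 56.7% of the tested genes. The 10 genes and the gene lists below were chosen with earlier results of these data known. Their counts beside these shares are therefore a description and no test of the sets. In bulk skin, fewer cells of a type and less RNA per cell cannot be told apart.

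**Figure D2:**
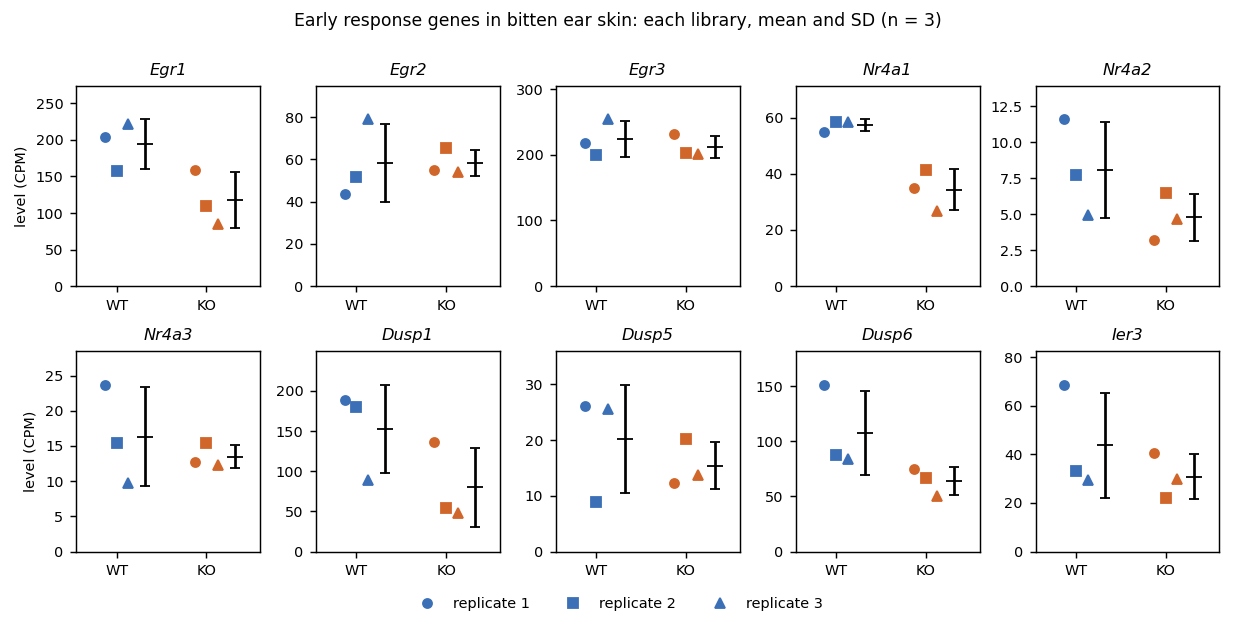
Level in CPM (axes from 0) of the 10 genes in each WT and KO library, with the group mean and SD (black, n = 3). KO and WT points are fully separate in Nr4a1 and Dusp6, and nearly so in Egr1.

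Among the EGR transcription factors, Egr1 was lower in KO while Egr2 and Egr3 were at similar levels in both groups. Egr1 (chromosome 18, 34861207 to 34864956, plus strand) measured 205, 157 and 222 CPM in the WT mice, while the KO mice gave 159, 109 and 84.3 CPM. A single pair of libraries crossed, KO replicate 1 lying just above WT replicate 2. The means were 195 ± 33.9 and 118 ± 38.2 CPM (SD, n = 3 each). The log2 fold change was -0.76 (SE 0.23, limma p = 0.0123, exact permutation p = 0.2). The sign of this difference was kept whichever library was left out, from -1.002 to -0.55.

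Egr3 (chromosome 14, 70077317 to 70082613, plus strand), a relative of Egr1 that binds the same DNA site, varied little. WT libraries held 218, 200.2 and 254 CPM of it, and KO libraries 232, 203 and 201 CPM. The groups overlapped fully, and the log2 fold change was -0.08 with a 95% interval of -0.36 to 0.20. Egr2 (chromosome 10, 67535499 to 67542188, plus strand), best known for its part in nerve myelination and in T cell restraint, was at 43.8, 51.9 and 79.1 CPM for WT and at 55.2, 65.3 and 54.1 CPM for KO. All 3 KO values lay within the WT range, and the log2 fold change was 0.04 with an interval of -0.46 to 0.53. The interval for Egr2 still allows a decline as large as a log2 value of -0.46.

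Nr4a1, also called Nur77, was the member with the smallest p. Nr4a1 (chromosome 15, 101266846 to 101274794, plus strand) was even across WT skin, at 54.9, 58.6 and 58.5 CPM, and reached 34.9, 41.2 and 26.7 CPM across KO skin. The WT libraries lay within 1.07-fold of each other, and all 3 KO libraries lay below them. Such full separation downward was seen in 4.89% of the tested genes. The means were 57.4 ± 2.09 and 34.3 ± 7.25 CPM (SD, n = 3 each). The log2 fold change was -0.76 (SE 0.17, limma p = 0.0021), with an exact permutation p = 0.1, the smallest possible for 3 against 3 libraries. It lay between -0.90 and -0.59 when a library was left out. Its promoter, printed above, is one of those with 4 CRE cores. Its adjusted p was never below 0.466 over the alternatives.

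The other NR4A receptors were scarcer, and neither passed at the unadjusted level. Nr4a2 (chromosome 2, 57107226 to 57124003, minus strand), a factor needed for dopamine neurons, gave 11.6, 7.73 and 4.95 CPM in the WT mice, against 3.19, 6.45 and 4.70 CPM for KO. The groups overlapped, and these are 16 to 48 reads per library. Its log2 fold change was -0.68 (SE 0.37, limma p = 0.107, exact permutation p = 0.2). Leaving out WT replicate 3 gave -0.97 and an unadjusted p of 0.0269. Nr4a3 (chromosome 4, 48045305 to 48086446, plus strand), also called NOR1, was counted at 23.7, 15.5 and 9.73 CPM in WT libraries, and at 12.7, 15.4 and 12.3 CPM in KO libraries. WT libraries spanned 2.44-fold and KO libraries lay inside that span, so no difference was detectable (log2 fold change -0.18, interval -0.89 to 0.53). Without WT replicate 1 its sign turned, to 0.13.

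Among the phosphatases, Dusp6 and Dusp1 were lower in KO at the unadjusted level and Dusp5 was not. Dusp6 (chromosome 10, 99263231 to 99267489, plus strand), a cytoplasmic phosphatase specific to ERK, reached 152, 87.3 and 84.2 CPM in the WT mice but 75.2, 66.7 and 50.2 CPM among the KO mice. The groups did not overlap, although KO replicate 1 was close to the lower WT pair. The means were 108 ± 38.0 and 64.1 ± 12.7 CPM (SD, n = 3 each), and the log2 fold change was -0.71 (SE 0.25, limma p = 0.0216, exact permutation p = 0.1). The log2 fold change shrank to -0.44 when WT replicate 1 was dropped, and dropping KO replicate 3 gave -0.55 with an unadjusted p of 0.0844.

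Dusp1 (chromosome 17, 26505591 to 26508472, minus strand), a nuclear phosphatase of p38 and JNK that glucocorticoids also induce, had the largest fold change of the 10. WT libraries held 189, 180.4 and 89.5 CPM of it, and KO libraries 137, 54.4 and 48.2 CPM. The groups overlapped, since WT replicate 3 lay below KO replicate 1, and the libraries spanned 2.11-fold in WT and 2.84-fold in KO. The log2 fold change was -1.02 (SE 0.43, limma p = 0.0447, exact permutation p = 0.2). That p lay above 0.05 with other scalings (0.0519 by median of ratios, 0.052 by quantiles), and without the mean-variance trend (0.078). Among single libraries, the same held when the first (0.132) or the second (0.133) WT library was dropped, and when the second (0.134) or the third (0.159) KO library was.

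Dusp5 (chromosome 19, 53529145 to 53541809, plus strand), a nuclear phosphatase specific to ERK and the one with 2 CArG boxes, was uneven among WT mice. WT mice gave 26.1, 8.95 and 25.6 CPM, and KO mice gave 12.3, 20.2 and 13.8 CPM. WT replicate 2 was the lowest of all 6 libraries, and the KO values lay between it and the others. The log2 fold change was -0.26 with an interval of -1.21 to 0.68. Dropping WT replicate 2 gave -0.76 and an unadjusted p of 0.0206, whereas dropping WT replicate 1 gave -0.01. GENCODE M21 places an antisense gene over Dusp5, and whether the counting used strand was not stated.

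Ier3 (chromosome 17, 35821713 to 35822911, plus strand) was found at 68.7, 33.2 and 29.3 CPM in the WT mice, with 40.5, 22.1 and 29.7 CPM in the KO mice. Only WT replicate 1 lay above all KO libraries. The log2 fold change was -0.44 (SE 0.34, limma p = 0.238, exact permutation p = 0.5), or -0.06 once WT replicate 1 was dropped.

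**Figure D3:**
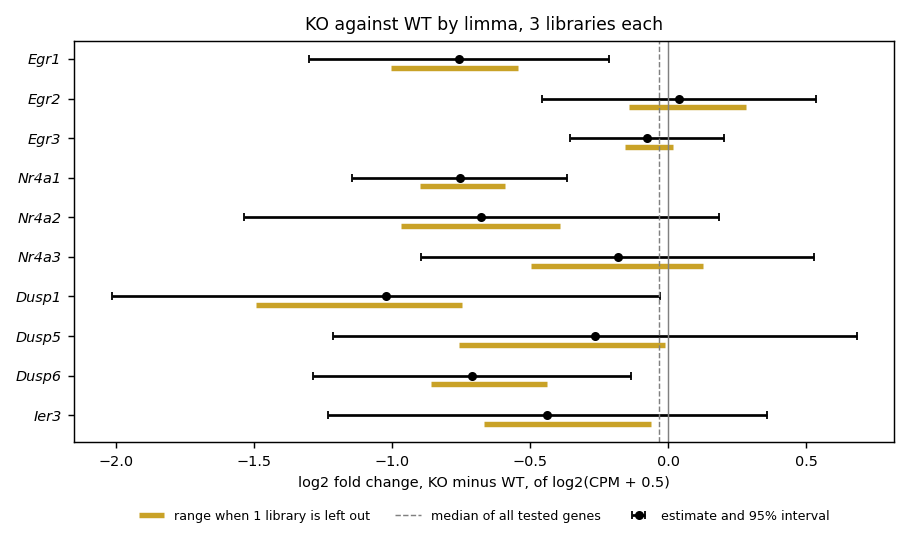
Log2 fold change of KO against WT for the 10 genes on the log2(CPM + 0.5) scale, with the 95% interval (black) and the range of estimates when 1 library is left out (yellow). Intervals of Egr1, Nr4a1, Dusp1 and Dusp6 lie below 0, and the dashed line marks the median of all tested genes, -0.03.

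Levels can be set side by side only per length, and the CPM per kb of mRNA was used for this. In WT skin the order of means was Dusp1 (76.8 ± 27.7 CPM per kb), Egr1 (64.1 ± 11.2), Egr3 (56.9 ± 7.01), Ier3 (38.7 ± 19.2), Dusp6 (38.5 ± 13.6), Nr4a1 (23.2 ± 0.842), Egr2 (19.7 ± 6.24), Dusp5 (8.17 ± 3.95), Nr4a3 (2.85 ± 1.23) and Nr4a2 (2.27 ± 0.939; SD, n = 3). Neighbours in this order overlapped except Dusp6 over Nr4a1 and Egr2 over Dusp5. In KO skin the mean of Egr3 came first, at 53.8 ± 4.36 CPM per kb, followed by Dusp1 (40.1 ± 24.9) and Egr1 (38.7 ± 12.6), and Nr4a1 (13.8 ± 2.93) lay below Egr2 (19.6 ± 2.08) in all 3 libraries. Egr3 and Dusp1 overlapped in KO, since Dusp1 was above Egr3 in KO replicate 1 (68.8 and 58.8 CPM per kb). All neighbours from Egr3 down to Egr2 overlapped in the KO order, and those from Egr2 down did not. Nr4a3 and Nr4a2 had the lowest means in both groups.

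**Figure D4:**
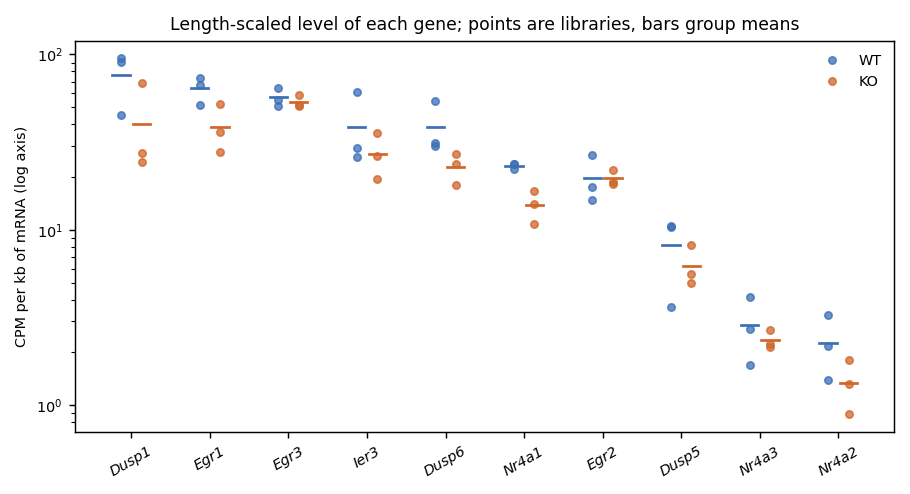
CPM per kb of mRNA (log axis) of the 10 genes, ordered by the WT mean, with 1 point per library and bars for group means. The order spans from 76.8 CPM per kb for Dusp1 to 2.27 for Nr4a2 in WT, and Egr3 has the highest mean in KO, where its libraries overlap with those of Dusp1.

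To ask whether relatives differed in their response, the ratio of 2 genes of a family was compared between the groups. Library scaling and gene length drop out of such a difference. Of the 9 pairs, 2 did not overlap between groups, and the share over other gene pairs was not computed. The Egr1 to Egr3 ratio was 0.938, 0.784 and 0.874 in WT and 0.688, 0.538 and 0.419 in KO, a difference of -0.68 in log2 ratio. The Nr4a2 to Nr4a3 ratio was 0.49, 0.50 and 0.508 in WT and 0.250, 0.418 and 0.381 in KO (-0.55), with few reads of Nr4a2. Each had an exact permutation p of 0.1, the smallest the design allows, and 0.45 after adjustment over the 9 pairs. For Egr1 to Egr2, KO replicate 1 (2.88) lay just above WT replicate 3 (2.81), with a difference of -0.80 (exact permutation p = 0.2). Nr4a1 to Nr4a3 differed by -0.58 with overlap (exact p = 0.3), and Dusp1 to Dusp6 by -0.31 (exact p = 0.5). With 3 mice per group the exact p cannot fall below 0.1, so this test could not have passed any pair and decides nothing about the ratios. These ratios were chosen after the values had been seen.

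By library, the members were on average highest in WT replicate 1 and lowest in KO replicate 3. The highest of the 6 libraries was a WT library in all 10 genes, against 58% of the tested genes. The lowest was a KO library in 6 of the 10. WT replicate 1 held the highest value of 6 genes (Nr4a2, Nr4a3, Dusp1, Dusp5, Dusp6 and Ier3), and KO replicate 3 the lowest of 4. The share over all tested genes was not computed for the counts of lowest values and of single libraries, so they are not read as particular to the members. The mean deviation of the 10 genes from their own averages was 0.54, 0.07 and 0.11 on the log2 scale across the WT libraries, against -0.10, -0.18 and -0.45 across the KO libraries. The median log2 fold change of the 10 was -0.56, against -0.03 over all tested genes, and it was -0.27 without WT replicate 1. Closest to this mean profile over the 6 libraries were Acaa1a (Pearson r = 0.993, Spearman rho 0.943), Macf1 (0.992, 0.943), Gosr2 (0.990, 1.0), Adat3 (0.990, 0.886) and Lsm12 (0.988, 0.943), picked from all genes tested for that likeness.

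Other immediate early genes were then examined as a list of 36, of which 35 were tested. All 35 had a lower mean log2 value in KO with the deposited scaling, against 56.7% of all tested genes, and the median log2 fold change was -0.30. With either other scaling 30 did, against 50.6% of all tested genes by median of ratios and 48.7% by quantiles. Of the 35, 9 were lower at an unadjusted p below 0.05 and none was higher, against 1.82% and 1.06% of all tested genes. The count was 3 without the mean-variance trend (2.26% of all tested genes), 4 without KO replicate 3 (2.11%) and 5 without WT replicate 2 (1.03%). None passed the adjustment (adjusted p of at least 0.998 in limma). The smallest p belonged to Klf2, a factor prominent in endothelium, with WT values of 34.4, 27.1 and 21.6 CPM against KO values of 18.1, 16.3 and 16.5 CPM (log2 fold change -0.67, SE 0.19). Klf6, a related zinc finger factor, had WT values of 306, 305 and 242 CPM against KO values of 217, 226 and 189 CPM (-0.43, SE 0.13). Klf2 and Klf6 were among 7 of the 35 genes whose KO values all lay below the WT values, against 4.89% of all tested genes. Mcl1, a survival protein (-0.33), Per1, a clock gene that glucocorticoids induce (-0.38), and Rhob, a small GTPase (-0.54), were also lower. Fos, a part of AP-1, had the largest change, from WT values of 179, 128 and 54.7 CPM to KO values of 95.6, 14.6 and 20.9 CPM (-1.79, SE 0.70), and its groups overlapped. The other 3 genes of the 9 were Fosb (-0.85), Atf3 (-0.49) and Trib1 (-0.30). Without WT replicate 1 the median of the list was -0.19 and 28 of 35 genes had a lower mean, against 58.5% of all tested genes.

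**Figure D5:**
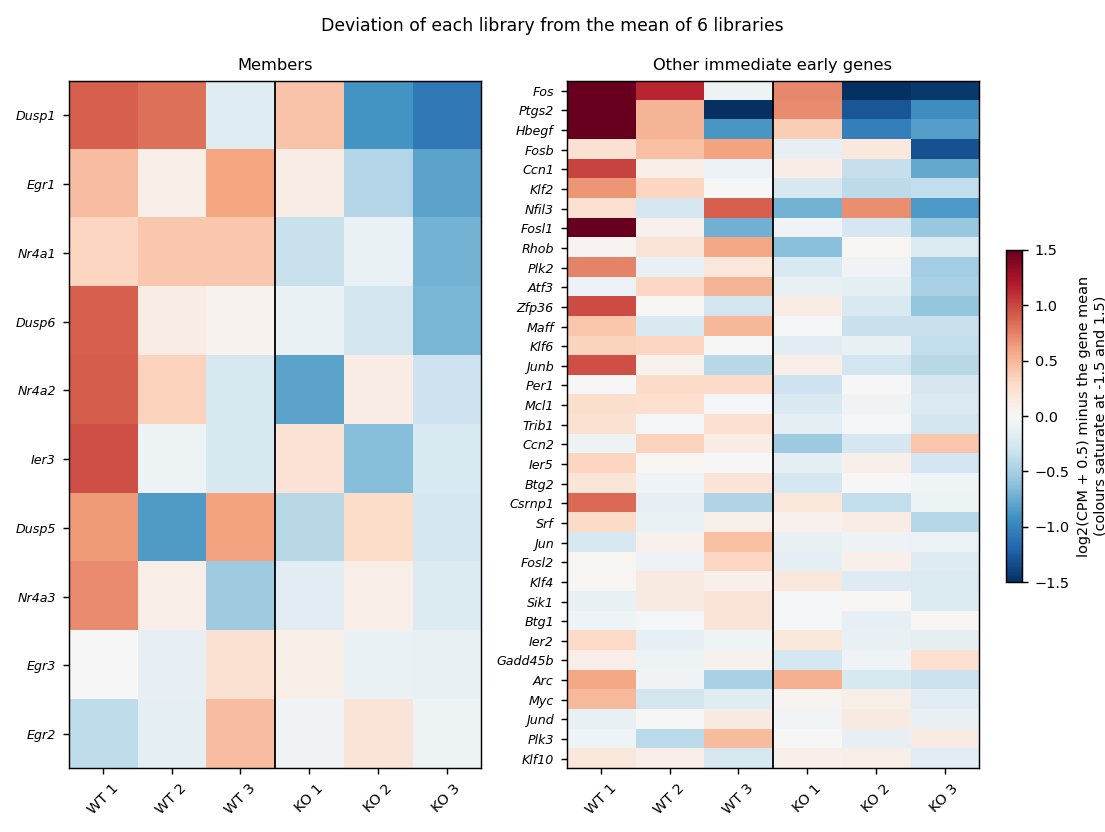
Deviation of each library from the gene's mean over 6 libraries, in log2(CPM + 0.5), for the 10 members and 35 other immediate early genes, each ordered by fold change. WT replicate 1 is the reddest and KO replicate 3 the bluest column, with mean deviations of 0.54 and -0.45 for the members.

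Lists of genes around the members in the pathway were read from the same fit. Of all tested genes, 56.7% had a lower mean log2 value in KO, and the median log2 fold change was -0.03. At the unadjusted level 1.82% of them were lower and 1.06% higher. Of 17 other dual specificity phosphatases, all tested, 12 had a lower mean in KO and 2 were lower at the unadjusted level, with a median log2 fold change of -0.19. These were Dusp3, with WT values of 56.6, 62.7 and 52.1 CPM against KO values of 40.7, 48.2 and 47.3 CPM (-0.33, SE 0.13), and Dusp26, at 1.12 to 5.70 CPM (-1.03, SE 0.42). Dusp26 rested on few reads, its lowest value being that of KO replicate 2, where 1 read is 0.28 CPM. Of 13 feedback and output genes of ERK, such as the Spry and Spred inhibitors, 12 had a lower mean, 0 passed at the unadjusted level in limma, and the median was -0.23. The 27 kinases and factors that switch the members on had a median of -0.01, and 0 passed. In that list KO values lay above all WT values for Rps6ka5, a kinase that acts on CREB and chromatin (log2 fold change 0.45), a separation seen upward in 2.95% of the tested genes. Of 5 partners of EGR and NR4A proteins 4 were tested, 2 had a lower mean in KO, 0 passed, and the median was 0.09. KO values lay above WT values for Rxra, a dimer partner of Nr4a1 and Nr4a2 (0.19). Nab2, which EGR proteins induce and which represses them, had a log2 fold change of -0.19 with overlap. Nab1, the other corepressor of EGR proteins in the list, went the other way, at 0.29 with overlap.

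Cell type markers were read as lists too, with means on the log2 scale, where 56.7% of all tested genes were lower in KO. The sum of 6 endothelial markers was 132 to 143 CPM in WT and 89.8 to 131 CPM in KO. These sums did not overlap but nearly met, at 132.2 and 130.9 CPM. Of all tested genes, 4.89% were separate downward. All 6 endothelial markers had a lower mean in KO. All 7 adipocyte markers other than Adipoq had a lower mean too (433 to 654 CPM in WT, 243 to 685 CPM in KO), as did all 8 skeletal muscle markers (4542 to 5806 and 2781 to 5508 CPM). By contrast, the mean log2 value was higher in KO for all 12 hair follicle markers (median log2 fold change 2.75), all 5 keratinocyte markers (0.27) and all 5 cartilage markers (0.30). For hair follicle markers this does not mean more CPM in KO. Their sums were only 12.3 and 17.7 CPM in WT replicates 1 and 2, but 22586 CPM in WT replicate 3, the highest of all libraries. A lower KO mean was found for 6 of 7 macrophage, 3 of 6 mast cell, 2 of 6 fibroblast, 3 of 5 tested neutrophil and 4 of 4 tested T cell markers. The macrophage list had sums of 405 to 799 and 392 to 769 CPM, the mast cell list 107 to 163 and 86.5 to 175 CPM, the fibroblast list 4466 to 5453 and 4556 to 6984 CPM, and the cartilage list 158 to 330 and 212 to 368 CPM. Of 6 T cell markers 4 were in the table (20.1 to 25.2 and 16.1 to 24.1 CPM). Markers at 0 in at least 1 library were Krt25, Krt28, Krt71, Krt73, Krt31, Krt33a, Krt85 and Krt86 of the hair follicle list and Mmp8 of the neutrophil list. The part of these cells in the levels of the 10 genes was not tested. WT replicate 1, which had the neutrophil sum of 502 CPM, was also the library with the highest value of Nr4a2, Nr4a3, Dusp1, Dusp5, Dusp6 and Ier3, while Nr4a1 was lowest there among WT libraries.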

How the data were processed

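Total RNA of 6 punches was sequenced after TruSeq library preparation. Per the labels and the methods, the authors trimmed the reads, aligned them to mm10 with STAR 2.7.3a and quantified transcripts with the expectation-maximization step of Partek Flow, which can split a read among genes. The deposited values are CPM (total count scaling plus an offset of 0.0001, subtracted here). Strand use and the low-value filter are not given in the sources used here.

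The CPM of 1 read was read from the spacing of low values. Among low values (below 20 reads), the share no more than 0.1 from a whole number was 91.9% to 92.6%, so reads are estimates and no count model was used. Read numbers carry counting error only.

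KO and WT were compared with limma 3.58.1 (R 4.3.3, eBayes with trend, two-sided) on log2(CPM + 0.5) over the 14306 genes averaging 1 CPM or more, with Benjamini-Hochberg adjustment over all of them. The 1361 other genes were not tested. Fold changes on this scale understate the change of low genes. The labels do not say more of the mice than their genotype, but the methods name 3 mice per group. Data were also simulated at the implied depths, with independent libraries and the same fixed dispersion for every gene. In them, 32.0% of the tested genes changed by 1 on the log2 scale were recovered at an adjusted p below 0.05. For those changed by 2 the share was 97.4%. Real genes can vary more, such as Dusp1 with a 2.84-fold span among KO libraries, so these shares may not hold for the members.

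Message lengths are of the longest GENCODE M21 transcript with a curated RefSeq match. Listed gene ends were lowered by 1. Promoters are from RefSeq. The 10 members, the lists and the rule were chosen with earlier results of these data known. The rule named the members, Adipoq, up to 6 genes per pathway list at an unadjusted p below 0.05 by smallest p, and the 5 genes most like the mean of the members. Rps6ka5, Rxra, Nab1, Nab2, Fosb, Atf3 and Trib1, and the highest and lowest markers, were named after their values had been seen. Alternatives were 2 other pseudocounts, 2 other filters, 2 other scalings, no trend, a replicate block and each library left out.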

Additional observations from a re-analysis of the deposited data

How the results depend on the processing

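Over 14 alternatives to the limma fit, Egr1 and Nr4a1 stayed lower in KO at an unadjusted p below 0.05 in each, and none of the 10 members passed the adjustment in any. The number of members lower at that level was 4, and 2 to 5 with a library left out (2 without KO replicate 3). Members without overlap numbered 2 (4.89% of all tested genes), and 2 to 5 with a library left out, when separation is easier and the share over all tested genes was 7.72% to 13.0%. They were 5 without WT replicate 3 (11.4% of all genes) and 4 without WT replicate 2 (7.72%) or KO replicate 1 (9.61%). The number with a lower mean was 8 to 10. With a library left out, Egr2 ranged from -0.14 to 0.28 and lay below 0 when the first or second WT library or the second KO library was dropped, Egr3 ranged from -0.16 to 0.017 (without WT replicate 3), and Nr4a3 from -0.50 to 0.13 (without WT replicate 1). The 9 immediate early genes were 3 without the trend and 4 to 10 with a library left out (4 without KO replicate 3, 5 without WT replicate 2), and 28 to 34 of the 35 then had a lower mean. Of all tested genes, 1.03% to 2.77% were lower at that level with a library left out, and 53.6% to 58.9% had a lower mean. The 2 lower genes of the other pathway lists were 1 with a filter at 5 CPM, quantile normalization, no trend or the replicate block, and 1 to 4 with a library left out. Higher genes there numbered 0 in the unaltered limma fit and 2 by median of ratios. They numbered 1 with quantile normalization, no trend or the replicate block, and 0 to 1 with a library left out.

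Over all genes, 260 were lower and 152 higher at an unadjusted p below 0.05. With quantile normalization 232 were higher. With a library left out the counts were 147 to 395 lower and 89 to 313 higher, and 0 to 16 genes passed the adjustment instead of 2 (0 without WT replicate 2, 16 without WT replicate 3). Lower genes made up 63.1% of the calls with the deposited scaling, 50.7% by median of ratios and 45.4% by quantiles, while the median of all genes moved from -0.03 to 0.00 and 0.01. Adipoq was at -6.54 to -5.94 with a library left out, and its adjusted p was 0.0683 without WT replicate 2. With the replicate block, 414 genes were lower. Replicate numbers did not pair the libraries: deviations from group means correlated at 0.376, -0.306 and -0.222 for numbers 1, 2 and 3, so the block is no paired analysis. The cause of these changes was not tested. Nr4a2 had the fewest reads of the members, 16 to 48 per library.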
